A study of Mus musculus with 12 samples.

Results

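The genes described here encode the enzymes, regulators and carriers with which mouse cells make cholesterol and fatty acids. They were chosen by name: every array probe whose platform annotation gave 1 of 30 listed symbols was taken, whatever its signal. The list itself was drawn up with earlier results of these data known, so the counts below are a description and no independent support. Of the 18889 genes named on the array, 28 of the 30 listed genes had a named probe, with 46 of the 45281 probe entries. Hmgcs1 and Fdft1, the enzymes that open the mevalonate pathway and make squalene, were not analysed here. Of the 28 genes, 26 passed the filter on dim probes and were tested among 10797 genes. Idi1, which isomerises the isoprenoid building block, was detected on 0 kidney, 1 heart and 1 bone marrow array, and Acaca, which makes malonyl-CoA, on 0 of 12, so neither was tested. The probe that stood for each of the 26 tested genes was detected on all 12 arrays, so none passed the filter through its brighter tissue alone.

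Cholesterol is built from acetyl-CoA through mevalonate, isoprenoid pyrophosphates, squalene and lanosterol, and most of these steps take place in the endoplasmic reticulum. When that membrane is poor in sterol, the escort protein Scap carries the transcription factors encoded by Srebf1 and Srebf2 to the Golgi, where proteases release their active part, which switches on the synthesis genes. When sterol is plentiful, the Insig proteins hold Scap back, and oxysterols such as 25-hydroxycholesterol strengthen that hold. Marrow stromal cells are also a source of fat cells, in which fatty acid synthesis is a main activity.

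The series profiled cultured mouse cells of 3 origins on Illumina bead arrays with 1 colour: kidney-derived and heart-derived cells that the labels liken to mesenchymal stem cells (MSC), and classical MSC of the bone marrow. Each tissue had 4 arrays of total RNA, which the design text calls biological replicates, and the p-values rest on the spread among those arrays. The labels do not state strain, sex, age, passage or culture medium, and no treatment or genetic change is named for any group. Nothing in the labels says how many animals the cultures came from or whether animals were pooled. Their number limits the precision.

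The stromal label was checked against 9 markers, among them Thy1, Cd44, Pdgfra and Col1a1, and all 9 were detected on every array of each tissue. Some levels differed at a limma adjusted p under 0.05. Of the 9, 3 rose and 2 fell in heart minus bone marrow, against 26.4% and 29.6% of all genes. In kidney minus bone marrow 2 rose and 2 fell, against 19.9% and 24.3%. In kidney minus heart 3 rose and 3 fell, against 24.9% and 24.1%. The widest log2 changes were named after their values were seen. Thy1 changed by 1.86 in heart minus bone marrow and -2.63 in kidney minus heart, and Pdgfra by -2.15 in kidney minus bone marrow. Markers of other cell types were mixed. Of the macrophage list, Ptprc, Adgre1, Itgam, Tyrobp and Fcgr1 were detected on 0 of 12 arrays and Csf1r, Lyz2 and Mrc1 on all 12, with a summed normalised intensity of these last 3 of 209 to 272 in kidney, 322 to 388 in heart and 195 to 292 in bone marrow. Csf1r and Lyz2, named after their values were seen, were higher in heart than in bone marrow by 0.77 and 0.67 on the log2 scale (limma adjusted p = 0.00311 and 0.00397). Endothelial Kdr and Vwf were detected on 0 arrays and Tek on 0 kidney, 3 heart and 2 bone marrow arrays. Pecam1 was detected on 2 kidney, 0 heart and 1 bone marrow array, Cdh5 on 1, 1 and 0, and Tie1 on 0, 0 and 1. Renal epithelial Epcam, Krt18 and Pax8 were detected on 0 arrays, Krt8 on all 12 and Cdh1 on 4 kidney, 3 heart and 4 bone marrow arrays. Cdh16 was detected on 2 kidney arrays and Umod on 1 kidney array, and both on 0 heart and 0 bone marrow arrays. Krt8, also named after its values were seen, was higher in kidney than in heart by 0.60 on the log2 scale (limma adjusted p = 0.0331). Its kidney minus bone marrow difference was 0.10 and not called (limma adjusted p = 0.748). Cardiomyocyte Myh6, Myl7 and Actn2 were detected on 0 arrays, Nppa on 1 kidney array, Ryr2 on 1 bone marrow array, and Tnni3 on 1 kidney and 1 heart array. The part of these cell types in the results below was not tested. Mean raw signal was 1000 to 1049 on kidney arrays, 935 to 1066 on heart arrays and 754 to 949.9 on bone marrow arrays. Bone marrow replicate 1 was the dimmest array and stood apart from the other bone marrow arrays in these genes. It lay below all 3 of the others in 20 of the 26 tested genes, against 35.2% of all genes tested, and its median difference from their mean was -0.44 on the log2 scale, against -0.01 over all genes. The main counts that use bone marrow are therefore given with and without it.

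Values below are log2 of background-corrected, quantile-normalised intensity, and each change is a difference of tissue means on that scale, given with the SE of the limma fit. A gene was called at a Benjamini-Hochberg adjusted p under 0.05 over all 10797 genes. A level here cannot separate fewer cells of a type from less RNA per cell.

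Most of these genes were lower in kidney-derived cells, and most were lower in heart-derived cells, than in bone marrow MSC. In kidney-derived cells, 23 of the 26 tested genes fell relative to bone marrow MSC, against 24.3% of all genes tested, and 0 rose, against 19.9%. For 15 of them the fall was at least 2-fold, a size of fall that 3.56% of all genes showed. In heart-derived cells, 17 fell and 1 rose relative to bone marrow MSC, against 29.6% and 26.4% of all genes, and 5 fell by at least 2-fold, against 5.59%. Kidney-derived cells also lay below heart-derived cells: 17 genes fell and 2 rose, against 24.1% and 24.9% of all genes, and 11 fell by at least 2-fold, against 6.96%. The median change over the 26 genes was -1.20 for kidney minus bone marrow, -0.68 for heart minus bone marrow and -0.84 for kidney minus heart, beside -0.04, -0.03 and 0.02 over all genes. Any pair of these comparisons shares the 4 arrays of a tissue, the bone marrow arrays for the first pair, so their changes are not independent of each other.

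**Figure D1:**
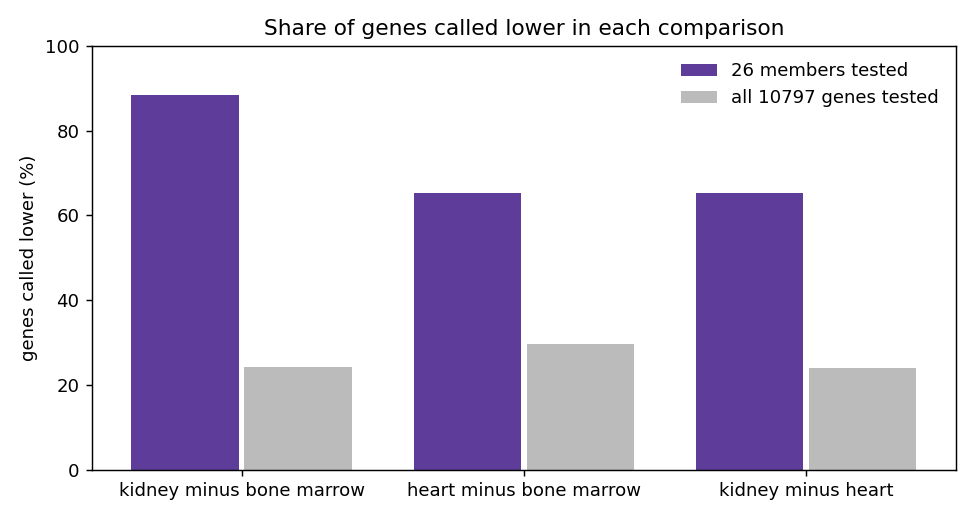
Percent of genes called lower in each comparison (vertical axis, from 0), for the 26 tested sterol and fatty acid genes beside all 10797 genes tested. In each comparison the share of the listed genes stands above that of all genes; 23 of 26 were lower in kidney minus bone marrow, where 24.3% of all genes were.

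The arrays of the tissues were mostly separate, not merely different in mean. All 4 kidney arrays lay below all 4 bone marrow arrays for 23 genes, against 20.7% of all genes, and for 0 genes did they lie above, against 17.3%. All heart arrays lay below all bone marrow arrays for 15 genes, against 26.3%, and above them for 1, against 23.8%. All kidney arrays lay below all heart arrays for 18 genes and above them for 2, against 23.5% of all genes either way. Set against the bone marrow mean of each gene, the median over the 26 genes was -1.28 to -1.13 on the kidney arrays and -0.75 to -0.66 on the heart arrays. On the bone marrow arrays it was -0.33 on replicate 1 and 0.05 to 0.14 on the other 3. Without bone marrow replicate 1, the counts were 23 lower and 0 higher for kidney minus bone marrow, with a median of -1.33, and 18 lower and 2 higher for heart minus bone marrow, with a median of -0.78.

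**Figure D2:**
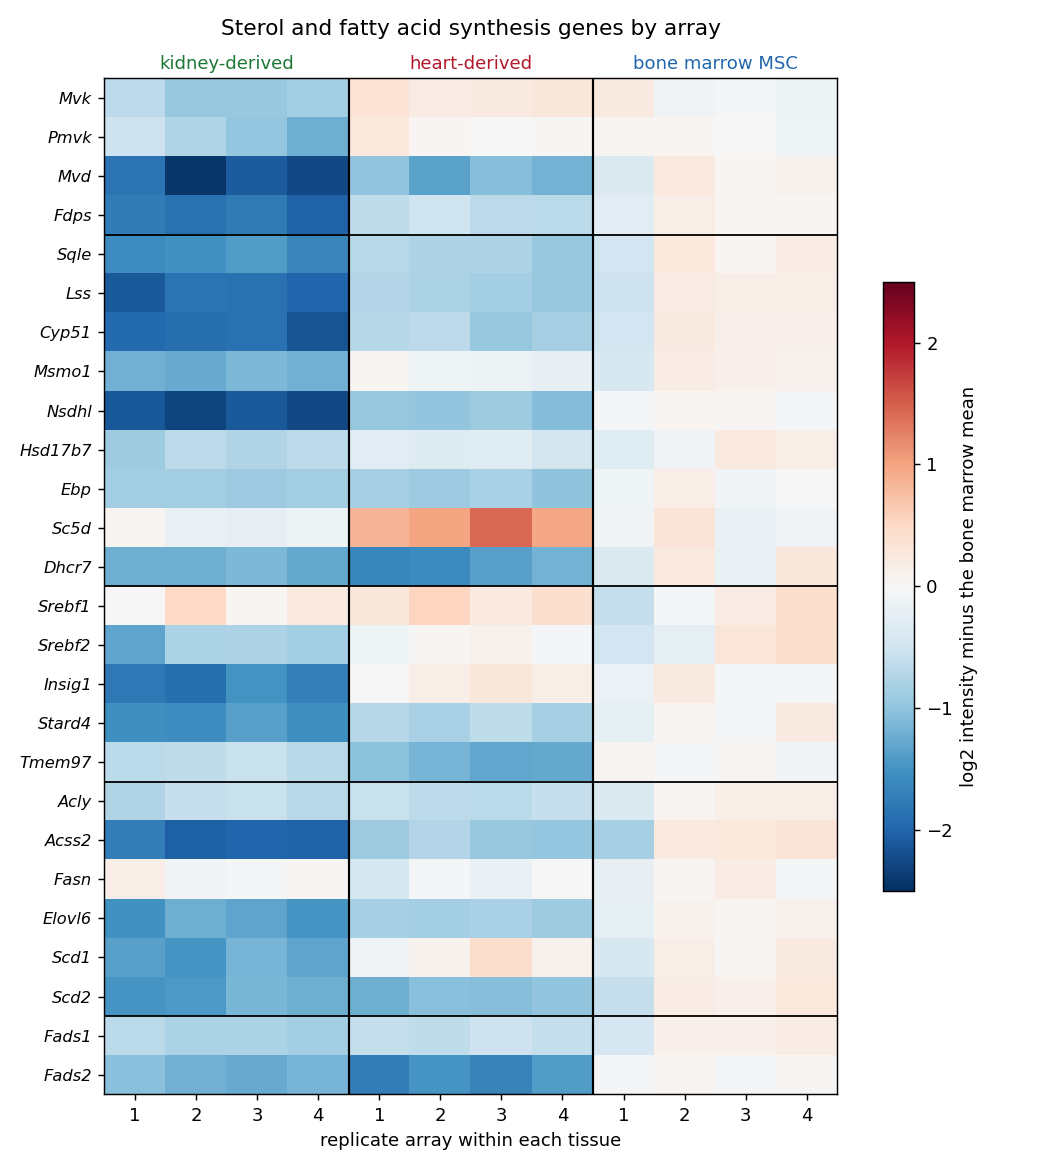
Log2 intensity of each of the 26 tested genes on each of the 12 arrays, minus the gene's mean over the bone marrow arrays (colour scale, blue lower and red higher), with genes in rows by role and arrays in columns by tissue. The kidney columns are blue in most rows, and the row of Sc5d is red on the 4 heart arrays.

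Beyond the tilt toward bone marrow, the genes took several orders across the tissues, which are given here as a description because the comparisons share arrays. Kidney lay below heart and heart below bone marrow, with each pair called, for 10 of 26 genes, an order shown by 1.61% of all genes: Mvd, Fdps, Sqle, Lss, Cyp51, Nsdhl, Hsd17b7, Stard4, Acss2 and Elovl6. Hsd17b7 leaves this order with median scaling. Kidney lay below both other tissues, with heart and bone marrow not called apart, for 6, against 4.95%: Mvk, Pmvk, Msmo1, Srebf2, Insig1 and Scd1. Kidney and heart both lay below bone marrow, and were not called apart, for 5, against 7.48%: Ebp, Dhcr7, Acly, Scd2 and Fads1. For 2 genes, Tmem97 and Fads2, heart lay below kidney and kidney below bone marrow, against 5.39%. Sc5d alone was higher in heart than in the other tissues, an order of 8.72% of all genes, and no pair was called for Srebf1 and Fasn, as for 27.9%. Other orders also depend on the setting or the probe, as given below. Mvk, Msmo1, Insig1 and Srebf1 were called in heart minus bone marrow under some alternatives, and Fads1 in kidney minus heart. Further probes of Fads2 and Srebf2 were not called in kidney minus heart. Over the 3 tissues together, 24 of 26 genes passed the limma F test, against 68.3% of all genes.

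**Figure D3:**
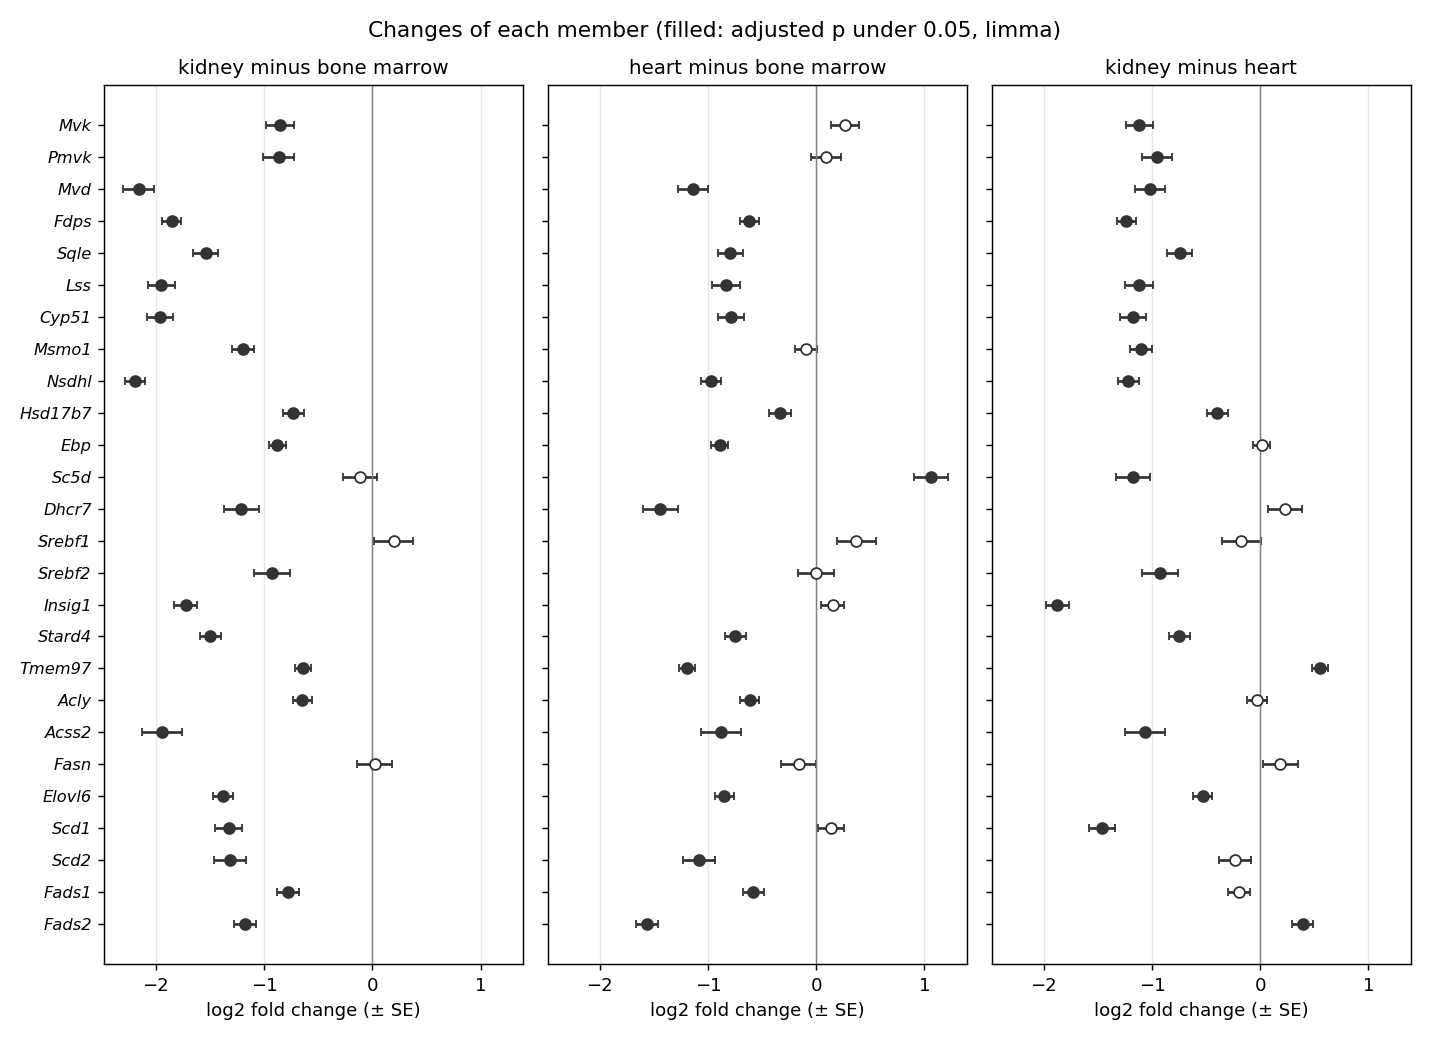
Log2 fold change (horizontal axis) with its SE for each of the 26 tested genes in kidney minus bone marrow, heart minus bone marrow and kidney minus heart, with filled points for adjusted p under 0.05 in limma. In kidney minus bone marrow 23 points are filled and all of those lie left of 0; in heart minus bone marrow the filled point right of 0 is Sc5d.

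The mevalonate steps come first in the pathway, and all 4 tested genes of this group fell in kidney-derived cells against each of the other tissues. Of all genes, 24.3% fell in kidney minus bone marrow and 24.1% in kidney minus heart. Mvd, the decarboxylase that makes isopentenyl pyrophosphate, read 8.31, 7.72, 8.07 and 7.90 on the kidney arrays, 9.18, 8.82, 9.08 and 8.98 on the heart arrays, and 9.79, 10.39, 10.20 and 10.25 on the bone marrow arrays. The tissues formed 3 steps that did not overlap. The Mvd change was -2.16 ± 0.14 for kidney minus bone marrow (adjusted p = 1.4e-10), a 4.46-fold fall, and -1.14 ± 0.14 for heart minus bone marrow (adjusted p = 7.56e-07). Fdps, which joins isoprenoid units into farnesyl pyrophosphate, lay at 11.68 to 11.96 in kidney, 13.03 to 13.21 in heart and 13.45 to 13.89 in bone marrow. Its change was -1.85 ± 0.09 for kidney minus bone marrow (adjusted p = 1.22e-12) and -0.62 ± 0.09 for heart minus bone marrow (adjusted p = 5.39e-06), again with no overlap.

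The kinases Mvk and Pmvk, which phosphorylate mevalonate and phosphomevalonate, did not share the heart step. Mvk read 7.02, 6.74, 6.73 and 6.83 in kidney, 8.02, 7.90, 7.91 and 7.96 in heart, and 7.92, 7.59, 7.66 and 7.56 in bone marrow. The kidney arrays lay below all others, whereas heart and bone marrow overlapped. Mvk fell by 0.85 in kidney against bone marrow (SE 0.13, adjusted p = 1.71e-05), and heart minus bone marrow was 0.26 ± 0.13 (adjusted p = 0.0846). Without bone marrow replicate 1, which was here the brightest of its tissue, that heart value was 0.34 with an adjusted p of 0.0327. Pmvk changed by -0.86 ± 0.14 for kidney minus bone marrow (adjusted p = 4.83e-05), with heart minus bone marrow at 0.09 ± 0.14.

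From squalene to cholesterol, 8 of 9 tested genes fell in kidney minus bone marrow, against 24.3% of all genes. In heart minus bone marrow 7 of 9 fell, against 29.6%. Nsdhl, a dehydrogenase that takes part in removing the methyl groups at C-4 of the sterol, gave the largest fall in value of the 26 genes in kidney minus bone marrow. It read 7.99, 7.81, 7.99 and 7.84 in kidney, 9.15, 9.12, 9.21 and 9.02 in heart, and 10.06, 10.16, 10.13 and 10.05 in bone marrow. The arrays of the 3 tissues did not overlap. The change was -2.19 ± 0.09 for kidney minus bone marrow (adjusted p = 2.08e-13), a 4.57-fold fall, and -0.97 ± 0.09 for heart minus bone marrow (adjusted p = 2.55e-08). The other 3 entries under the Nsdhl probe identifier were all called lower too, with changes of -1.95 to -1.76 in kidney minus bone marrow.

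The enzymes that form lanosterol and start to trim it kept the same 3 steps. Cyp51, the lanosterol demethylase, read 10.31, 10.37, 10.38 and 10.10 in kidney, 11.54, 11.59, 11.31 and 11.42 in heart, and 11.78, 12.48, 12.37 and 12.38 in bone marrow. Even the low bone marrow replicate 1 stayed above every heart array. The Cyp51 change was -1.96 ± 0.12 for kidney minus bone marrow (adjusted p = 6.8e-11) and -0.79 ± 0.12 for heart minus bone marrow (adjusted p = 1.36e-05). Lss, which folds squalene epoxide into lanosterol, changed by -1.95 ± 0.13 and -0.83 ± 0.13 in the same comparisons, and Sqle, the squalene epoxidase, by -1.54 ± 0.12 and -0.80 ± 0.12. A further Lss probe near background, detected on 1 kidney, 1 heart and 2 bone marrow arrays, was not called, at -0.37 for kidney minus bone marrow.

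Msmo1, the C-4 methyl oxidase that acts just before Nsdhl, fell in kidney and was not called in heart against bone marrow. It read 11.60, 11.55, 11.70 and 11.61 in kidney, 12.86, 12.71, 12.68 and 12.61 in heart, and in bone marrow 12.40 on replicate 1 and at least 12.91 on the other 3. Bone marrow replicate 1 lay below all heart arrays, and the other 3 lay above all of them. Kidney minus bone marrow was -1.20 ± 0.10 (adjusted p = 8.93e-09), and heart minus bone marrow -0.09 ± 0.10 (adjusted p = 0.464). Without that replicate the heart change was -0.23 with an adjusted p of 0.00811. Hsd17b7, a ketoreductase of the same demethylation, fell by 0.73 in kidney and by 0.33 in heart against bone marrow (adjusted p = 4.69e-06 and 0.00665), with heart and bone marrow arrays overlapping, and the heart call was lost with median scaling (-0.26, adjusted p = 0.0832).

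An isomerase and a reductase late in the pathway separated bone marrow from both organs. Ebp, the sterol isomerase, read 10.42, 10.42, 10.37 and 10.41 in kidney, 10.45, 10.36, 10.47 and 10.28 in heart, and 11.18, 11.44, 11.22 and 11.28 in bone marrow. The kidney and heart arrays overlapped, and all 8 lay below bone marrow. Ebp changed by -0.88 ± 0.08 for kidney minus bone marrow (adjusted p = 1.95e-08) and by -0.89 ± 0.08 for heart minus bone marrow (adjusted p = 8.04e-09), and kidney minus heart was 0.01 ± 0.08. Dhcr7, which makes cholesterol from 7-dehydrocholesterol, changed by -1.21 ± 0.16 and -1.44 ± 0.16 against bone marrow, with kidney minus heart at 0.23 ± 0.16 (adjusted p = 0.248).

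Sc5d, the sterol desaturase that acts between Ebp and Dhcr7, went against its neighbours. It read 6.95, 6.73, 6.71 and 6.78 in kidney, 7.75, 7.90, 8.35 and 7.87 in heart, and 6.83, 7.23, 6.75 and 6.82 in bone marrow. Every heart array lay above every other array, while kidney and bone marrow overlapped. Sc5d rose by 1.06 ± 0.15 in heart minus bone marrow (adjusted p = 7.27e-06), a 2.08-fold rise, and kidney minus bone marrow was -0.11 ± 0.15 (adjusted p = 0.585). Its raw signal was dim, between 178.2 and 454.8.

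**Figure D4:**
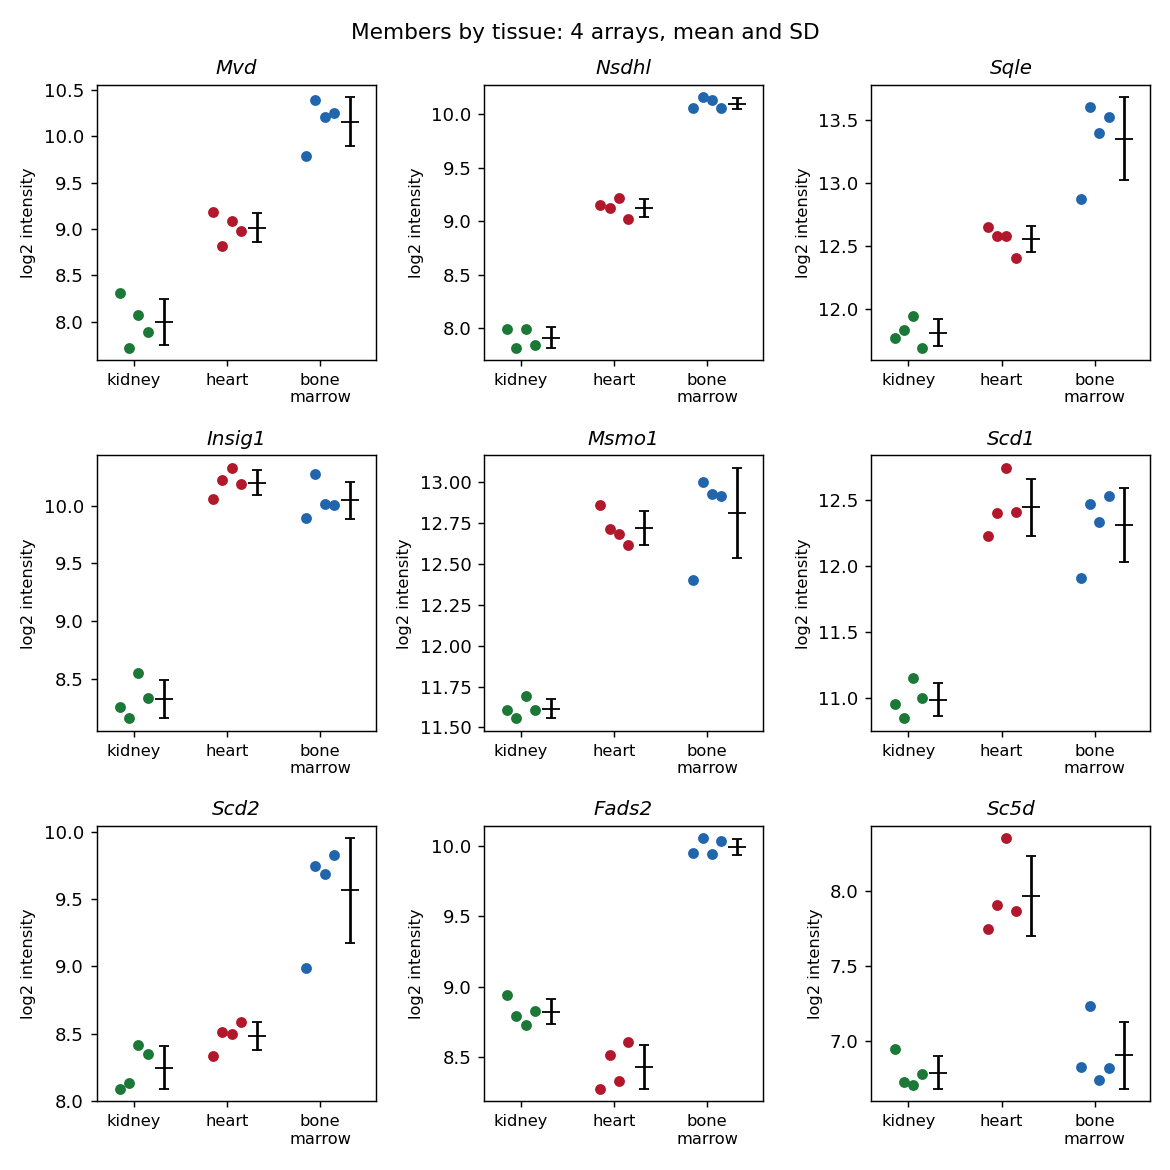
Log2 intensity (vertical axis, a separate range for each gene) of 9 genes on the 4 arrays of each tissue, with the mean and SD beside the points. Mvd, Nsdhl and Sqle form 3 steps, Insig1, Msmo1 and Scd1 are low in kidney, Scd2 and Fads2 are high in bone marrow, and Sc5d is high in heart.

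Promoters of 6 of these sterol genes are shown because they stand for the different orders above: Mvd, Cyp51 and Lss for the 3 steps, Msmo1 for a fall in kidney, Ebp for a fall in both organs, and Sc5d for the rise in heart. Each is the 120 bases before the gene start, 5′ to 3′ on the gene's own strand, from RefSeq on GRCm38.p6. They lie at chr8:122443423-122443542 (minus strand) for Mvd, chr5:4104698-4104817 (minus) for Cyp51, chr10:76531485-76531604 (plus) for Lss, chr8:64733579-64733698 (minus) for Msmo1, chrX:8193513-8193632 (minus) for Ebp and chr9:42264301-42264420 (minus) for Sc5d. Capitals mark the letters CCAAT, or ATTGG where they stand on the opposite strand, the core of the site of the factor NF-Y, which binds beside the Srebf factors in many promoters of this pathway.
Mvd: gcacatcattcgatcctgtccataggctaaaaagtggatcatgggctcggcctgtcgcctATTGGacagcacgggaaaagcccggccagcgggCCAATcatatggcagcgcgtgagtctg
Cyp51: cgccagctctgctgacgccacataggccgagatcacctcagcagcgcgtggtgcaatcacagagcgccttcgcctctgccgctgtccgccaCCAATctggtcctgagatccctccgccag
Lss: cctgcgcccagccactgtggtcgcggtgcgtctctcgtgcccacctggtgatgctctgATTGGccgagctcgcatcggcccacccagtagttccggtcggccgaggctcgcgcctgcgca
Msmo1: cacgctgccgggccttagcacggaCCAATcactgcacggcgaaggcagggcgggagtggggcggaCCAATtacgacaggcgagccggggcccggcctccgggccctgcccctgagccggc
Ebp: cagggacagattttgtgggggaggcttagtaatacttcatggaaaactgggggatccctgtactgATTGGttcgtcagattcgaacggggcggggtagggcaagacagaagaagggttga
Sc5d: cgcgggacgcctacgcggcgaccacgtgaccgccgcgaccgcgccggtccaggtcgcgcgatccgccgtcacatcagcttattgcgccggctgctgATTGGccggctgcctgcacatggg

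All 6 stretches hold the CCAAT letters, at 60 and 27 bases before the start in Mvd, 96 and 55 in Msmo1, 29 in Cyp51, 62 in Lss, 55 in Ebp and 24 in Sc5d. The RefSeq table held 23 of the 30 listed genes, each with a window of 250 bases before to 50 after the start, searched on both strands. CCAAT occurred in 20 of the 23 windows (87.0%), against 43.1% of the 8719 tested genes in the table, and was not found in the windows of Acaca, Elovl6 and Fads2. The GC box letters GGGCGG occurred in 82.6%, against 67.9%, and the E-box letters CACGTG in 17.4%, against 11.7%. The sterol regulatory element letters TCACNCCAC occurred in 1 of 23 (4.35%), against 1.36%, or 1.44% of all 27025 genes in the table. That window was of Hmgcs1, whose expression was not tested, so no tested gene of the list with a window in the table held these letters. The tested genes Fdps, Sqle, Stard4, Scd1, Scd2 and Fads1 had no window there and were not searched. Like Hmgcs1, Idi1 and Acaca are untested and are among the 23. The shares of the listed genes are thus not over tested genes alone, unlike those set beside them. In the printed stretches no CCAAT base is shared with a match of the other motifs. Both Sc5d, which rose in heart, and Ebp, which fell there, carry the letters, and the matches are a description of the windows, not of binding.

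Among the regulators, Insig1 and Srebf2 fell in kidney against each of the other tissues, and Srebf1 was not called in any comparison. Insig1, the anchor that holds Scap in the endoplasmic reticulum and itself a target of the Srebf factors, read 8.25, 8.16, 8.55 and 8.34 in kidney, 10.06, 10.22, 10.33 and 10.19 in heart, and 9.89, 10.27, 10.02 and 10.01 in bone marrow. The kidney arrays stood apart and the other tissues overlapped. The Insig1 change was -1.72 ± 0.11 for kidney minus bone marrow (adjusted p = 7.11e-11) and -1.87 ± 0.11 for kidney minus heart (adjusted p = 1.68e-11), and heart minus bone marrow was 0.15 ± 0.11 (adjusted p = 0.243). Other entries under the same identifier read 0.45 and 0.41 for heart minus bone marrow and were called higher, so the heart result for Insig1 depends on the entry used. Those entries read -0.46 and -1.61 for kidney minus bone marrow and -0.91 and -2.02 for kidney minus heart, all called lower. The direction of the kidney fall was shared, but its size depends on the entry too. A further entry was detected on 0 arrays.

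Srebf2, the main activator of the sterol genes, read 8.02, 8.57, 8.58 and 8.50 in kidney, 9.25, 9.38, 9.46 and 9.30 in heart, and 8.87, 9.12, 9.66 and 9.75 in bone marrow. All kidney arrays lay below the rest, with bone marrow spread on both sides of heart. It fell by 0.93 in kidney against bone marrow (SE 0.17, adjusted p = 0.000125), and heart minus bone marrow was -0.00 ± 0.17. A second Srebf2 probe was called lower in heart minus bone marrow, at -0.35, and was not called in kidney minus heart, at -0.30 (adjusted p = 0.0694). Srebf1, which favours the fatty acid genes, read 7.45 to 7.95 in kidney, 7.69 to 7.99 in heart and 6.85 to 7.87 in bone marrow, with kidney minus bone marrow at 0.20 ± 0.18 (adjusted p = 0.399) and heart minus bone marrow at 0.37 ± 0.18 (adjusted p = 0.0864). Without bone marrow replicate 4 that heart value was 0.51 with an adjusted p of 0.0201.

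The sterol carriers differed in their order. Stard4, a soluble protein that moves cholesterol between membranes, lay at 9.25 to 9.44 in kidney, 9.97 to 10.16 in heart and 10.58 to 11.03 in bone marrow, and changed by -1.50 ± 0.10 and -0.75 ± 0.10 for kidney and heart minus bone marrow. Tmem97, the sigma-2 receptor, which affects the traffic of cholesterol out of lysosomes, was instead lowest in heart. It read 11.50, 11.53, 11.60 and 11.47 in kidney, 10.87 to 11.13 in heart, and 12.24, 12.12, 12.20 and 12.10 in bone marrow. The 3 tissues did not overlap, and Tmem97 rose by 0.55 ± 0.07 in kidney minus heart (adjusted p = 3.72e-06) while lying below bone marrow in both organs.

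In fatty acid synthesis, 5 of 6 tested genes fell in kidney minus bone marrow, against 24.3% of all genes. In heart minus bone marrow 4 of 6 fell, against 29.6%. Acss2, which makes cytosolic acetyl-CoA from acetate, read 8.50, 8.19, 8.25 and 8.20 in kidney, 9.35, 9.51, 9.29 and 9.26 in heart, and 9.39, 10.48, 10.49 and 10.56 in bone marrow. Bone marrow replicate 1 fell among the heart arrays, and the kidney arrays lay below all others. The change was -1.95 ± 0.18 for kidney minus bone marrow (adjusted p = 4.26e-08) and -0.88 ± 0.18 for heart minus bone marrow (adjusted p = 0.000406). Acly, which makes acetyl-CoA from citrate, changed by -0.64 ± 0.09 and -0.62 ± 0.09 in the same comparisons, with kidney and heart not called apart. Elovl6, which lengthens palmitate, changed by -1.38 ± 0.09 and -0.85 ± 0.09. Fasn, the fatty acid synthase itself, was close to background, with raw signal between 145.5 and 188.9 on every array, and gave 0.02 ± 0.16 for kidney minus bone marrow and -0.16 ± 0.16 for heart minus bone marrow. Its bone marrow mean of 6.09 stood not far above the lowest detected signals of those arrays, 5.64 to 5.69. The full size of a large fall could therefore not have been measured.

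The stearoyl-CoA desaturases Scd1 and Scd2, which put the first double bond into saturated fatty acids, are given side by side, and the difference between them was not tested. Scd1 read 10.84 to 11.15 in kidney, 12.23, 12.40, 12.74 and 12.41 in heart, and 11.91, 12.47, 12.33 and 12.53 in bone marrow. Only the kidney arrays were separate. Scd1 changed by -1.33 ± 0.12 for kidney minus bone marrow (adjusted p = 2.54e-08), and heart minus bone marrow was 0.14 ± 0.12 (adjusted p = 0.366). Scd2 read 8.09, 8.14, 8.42 and 8.35 in kidney, 8.34, 8.51, 8.50 and 8.59 in heart, and 8.99, 9.75, 9.69 and 9.83 in bone marrow. Here both organs lay below bone marrow, with changes of -1.32 ± 0.15 (adjusted p = 5.62e-07) and -1.08 ± 0.15 (adjusted p = 4.03e-06) for kidney and heart, and kidney minus heart was -0.23 ± 0.15 (adjusted p = 0.212).

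The desaturases of polyunsaturated fatty acids, Fads1 and Fads2, act on the essential fatty acids of the diet and both fell in each organ against bone marrow. Fads2, the first of them, read 8.94, 8.79, 8.73 and 8.83 in kidney, 8.27, 8.52, 8.33 and 8.60 in heart, and 9.95, 10.05, 9.94 and 10.04 in bone marrow. The tissues did not overlap, and heart was the lowest. The Fads2 change was -1.17 ± 0.10 for kidney minus bone marrow (adjusted p = 8.71e-09), -1.56 ± 0.10 for heart minus bone marrow (adjusted p = 6.28e-11) and 0.39 ± 0.10 for kidney minus heart (adjusted p = 0.00267). Another entry under the Fads2 identifier was called lower in both organs but not between them, at 0.25 for kidney minus heart (adjusted p = 0.262), so heart as the lowest tissue depends on the entry used. Fads1 changed by -0.78 ± 0.10 and -0.58 ± 0.10 against bone marrow, and a further Fads1 probe near background, at -0.48 and -0.15, was not called.

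All 37 kept probe entries of the listed genes were also fitted as features of their own. In kidney minus bone marrow 32 were lower and 0 higher, against 20.8% and 18.4% of all probes. For heart minus bone marrow 24 were lower and 3 higher, against 28% and 23.6%, and for kidney minus heart 24 were lower and 2 higher, against 20.4% and 23.3%. None of the 11 further probes was called in the direction opposite to its gene. Several identifiers, among them those of Fdps, Sqle, Lss, Nsdhl, Srebf1, Insig1, Acss2 and Fads2, stand in the deposited raw table more than once with different signals, and the brightest entry stood for the gene. The first entry for Srebf1 was detected on 0 arrays and that for Acss2 on 0 kidney, 1 heart and 1 bone marrow array, so the values of these genes rest on a later entry, as do those of Fdps, Sqle and Insig1. Which entry belongs to the annotated probe could not be settled.

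Other genes of the pathway moved less evenly. Of 15 tested genes for further sterol synthesis, uptake and Srebf control, 6 fell and 1 rose in kidney minus bone marrow, against 24.3% and 19.9% of all genes. In heart minus bone marrow 4 fell and 4 rose, shares close to the 29.6% and 26.4% of all genes, and in kidney minus heart 5 fell and 3 rose, against 24.1% and 24.9%. Insig2, the second Scap anchor, read 10.84 to 11.01 in kidney, 11.07 to 11.25 in heart and 11.49 to 12.39 in bone marrow, and changed by -1.11 ± 0.13 (adjusted p = 1.01e-06) and -0.86 ± 0.13 (adjusted p = 1.33e-05) for kidney and heart minus bone marrow. Scap rose by 0.34 ± 0.11 in heart minus bone marrow (adjusted p = 0.011), with kidney minus bone marrow at -0.05.

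The genes that make or answer to oxysterols included the widest change of the further lists. Ch25h, the enzyme that makes 25-hydroxycholesterol, read 11.95, 11.92, 12.18 and 12.30 in kidney, 11.14, 11.36, 11.41 and 11.18 in heart, and 7.80, 7.90, 7.72 and 7.73 in bone marrow. Its order, kidney above heart above bone marrow, was the reverse of that of the 10 genes with 3 steps. The Ch25h change was 4.30 ± 0.10 for kidney minus bone marrow (adjusted p = 1.66e-17), 3.48 ± 0.10 for heart minus bone marrow (adjusted p = 2.59e-16) and 0.81 ± 0.10 for kidney minus heart (adjusted p = 7.93e-07). Nr1h3, which encodes the oxysterol receptor LXR alpha, was not well above background on any kidney array and was at least 2.6-fold lower there than in bone marrow (adjusted p = 3.19e-10) and at least 5.05-fold lower than in heart (adjusted p = 1.09e-12). Lpcat3, a phospholipid-remodelling target of LXR, fell by 1.19 in kidney and by 0.34 in heart against bone marrow (adjusted p = 1.8e-10 and 0.000973). That heart call of Lpcat3 was lost with the authors' processed values and with the probes of a gene averaged. Of the 7 tested genes of this list, 2 fell and 1 rose in kidney minus bone marrow, near the 24.3% and 19.9% of all genes. In heart minus bone marrow 1 fell and 5 rose, against 29.6% and 26.4%, and in kidney minus heart 6 fell and 1 rose, against 24.1% and 24.9%. The LXR targets Abca1, Abcg1 and Mylip were detected on 0 of 12 arrays. Whether these genes bear on the sterol genes was not tested.

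**Figure D5:**
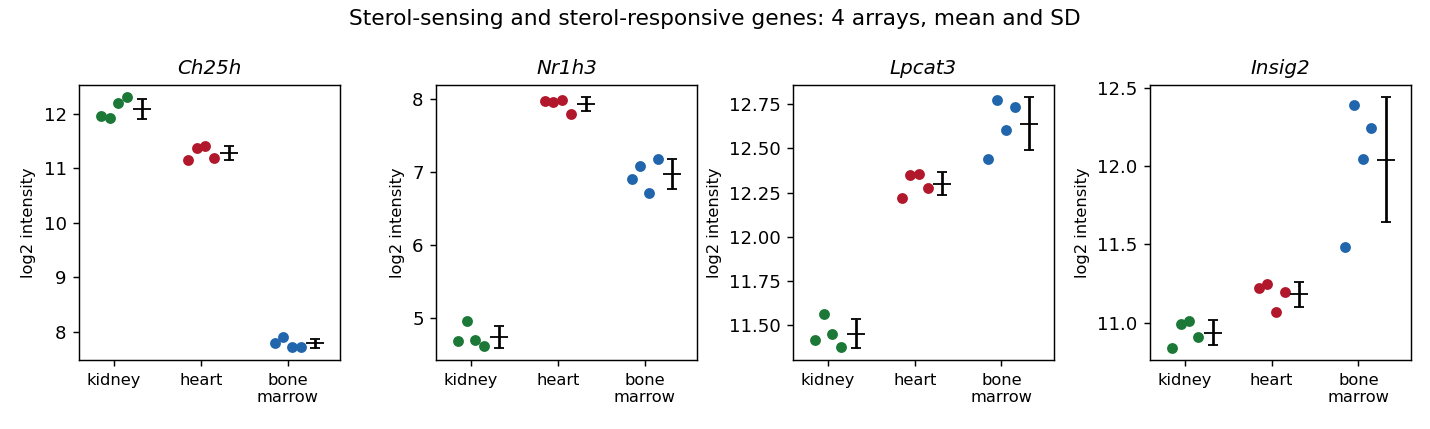
Log2 intensity (vertical axis, a separate range for each gene) of Ch25h, Nr1h3, Lpcat3 and Insig2 on the 4 arrays of each tissue, with the mean and SD beside the points. Ch25h is highest in kidney and near 7.8 in bone marrow, whereas Lpcat3 and Insig2 are highest in bone marrow; the kidney points of Nr1h3 are not well above background.

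Among 22 tested genes for further fatty acid synthesis, activation and esterification, 10 fell and 3 rose in kidney minus bone marrow, against 24.3% and 19.9% of all genes. In heart minus bone marrow 9 fell and 2 rose, against 29.6% and 26.4%, and in kidney minus heart 7 fell and 5 rose, near the 24.1% and 24.9% of all genes. Acsl3, which activates long-chain fatty acids, changed by -1.40 ± 0.10 and -1.01 ± 0.10 for kidney and heart minus bone marrow (adjusted p = 9.51e-10 and 5.96e-08). Lpin1, a phosphatidate phosphatase of triglyceride synthesis, fell by 1.25 in kidney against bone marrow (adjusted p = 4.45e-06) and by 1.29 against heart (adjusted p = 2.35e-06). Me1, the malic enzyme that supplies NADPH for lipid synthesis, rose by 0.77 ± 0.12 in kidney minus bone marrow (adjusted p = 2.06e-05), and Fads3, a relative of Fads1 and Fads2, by 0.67 ± 0.10 (adjusted p = 1.33e-05).

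Markers of fat cells and of dividing cells also differed between the tissues. Of 10 adipocyte markers with a named probe, Adipoq, Plin1, Cidec, Fabp4, Lep, Retn and Cd36 were detected on 0 arrays, Pparg and Lpl on all 12, and Cebpa on the kidney and bone marrow arrays alone. The summed normalised intensity of these last 3 was 6463 to 7525 in kidney, 1491 to 2058 in heart and 14388 to 21056 in bone marrow. The bone marrow means were 13.85 for Lpl, 11.73 for Pparg and 6.37 for Cebpa on the log2 scale, so the sum there was mostly Lpl. In kidney minus bone marrow Lpl changed by -2.02 and Cebpa by -0.46, and Pparg was not called, at -0.11 (limma adjusted p = 0.624). In heart minus bone marrow Lpl changed by -4.15 and Pparg by -1.98, and in kidney minus heart by 2.13 and 1.87. Cebpa, not detected on any heart array, was at least 1.7-fold lower in heart than in bone marrow (limma adjusted p = 4.1e-06). It was at least 1.24-fold lower in heart than in kidney (limma adjusted p = 0.00073). Of 12 tested proliferation genes, 9 fell and 0 rose in kidney minus bone marrow (24.3% and 19.9% of all genes), 12 fell and 0 rose in heart minus bone marrow (29.6% and 26.4%), and 11 rose and 0 fell in kidney minus heart (24.9% and 24.1%), with medians of -0.46, -1.22 and 0.79. The median over the 26 tested sterol and fatty acid genes in kidney minus heart was -0.84. The part of either marker list in the changes of the sterol and fatty acid genes was not tested.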

How the data were processed

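Per the file headers, the deposited raw table gives intensity that the authors did not normalize, with 1 column for each of 12 arrays and no background subtraction. Beside it the deposited detection fraction is headed as a p-value but rises with the signal, and was taken as 1 minus p. The authors' processed table holds linear intensity, made with lumi per the submitters' processing notes, with background and scaling steps not given in the sources used here. It carries the first entry of repeated identifiers and served only as an alternative, after log2.

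With limma 3.58.1 in R 4.3.3, neqc (normexp from detection p-values, offset 16, quantile normalization) gave log2 intensity. Probes with a detection fraction above 0.95 on at least 4 of 12 arrays were kept, each of 45281 entries being a probe, and the probe with the highest mean stood for a gene. Gene names came from the platform annotation. A linear model held 1 mean for each tissue over the 12 arrays (lmFit, then eBayes with a variance trend), with two-sided tests and Benjamini-Hochberg adjustment over all 10797 genes. The fit was tested on simulated data. Where a gene was not above background on any array of a tissue, a bound set the brighter tissue's mean against the lowest detected signal of the dim arrays.

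The naming rule admitted each of the 30 listed genes. From each further list the rule allowed up to 6 called genes with the largest change per comparison, plus fixed regulators such as Scap, Insig2 and Abca1. The listed genes, the further lists and the tests were chosen with earlier results of these data known, so they are no independent support for a direction. Same-numbered arrays did not deviate together (correlation of deviations -0.203 to 0.133, and 3 of 12 arrays correlated best with their own number), so the numbers were not taken as pairs. No arrays were identical. Alternatives changed the background correction, normalization, filter, probe choice, arrays fitted, variance prior and block, and left out each array.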

Additional observations from a re-analysis of the deposited data

Results flagged for a closer look

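In 11 of 78 sets of 4 arrays (26 genes in each of 3 tissues), 1 array lay far from the other 3, with a gap to the nearest above Dixon's critical value for 4 values. Chance flags about 1 in 20 such sets when they are independent. The 26 genes were read on the same arrays, so these sets are not, and the count cannot be set against that rate. Bone marrow replicate 1 was the low array in 7 of the 11. It read 10.67 for Lss, against 11.33 to 11.38 on the other bone marrow arrays, 11.78 for Cyp51, against 12.37 to 12.48, and 12.40 for Msmo1, against at least 12.91. In fatty acid synthesis it read 13.95 for Acly, against 14.37 to 14.46, 9.39 for Acss2, against 10.48 to 10.56, and 11.01 for Elovl6, against 11.29 to 11.35. For Fads1 it read 14.10, against 14.64 to 14.71. The other 4 were on different arrays. Heart replicate 1 was high for Pmvk, at 8.28 against 8.02 to 8.06, and bone marrow replicate 2 was high for Sc5d, at 7.23 against 6.75 to 6.83. Kidney replicate 1 was low for Srebf2, at 8.02 against 8.50 to 8.58, and kidney replicate 3 was high for Stard4, at 9.44 against 9.25 to 9.27. What set these arrays apart was not tested.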

How the results depend on the processing

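Of 1710 log2 changes of the tested genes under an alternative, 1699 kept their direction and side of the threshold or changed sign with neither value called, 10 passed the threshold anew, 1 lost it and 0 reversed a call. The count of genes called lower stayed within 17 to 18 for heart minus bone marrow, at 23 for kidney minus bone marrow and within 17 to 18 for kidney minus heart when each array was left out in turn. The count called higher in heart minus bone marrow, 1 in the report, was 2 with median scaling, the authors' values or no variance trend, 3 with the probes of a gene averaged, and 1 to 2 when an array was left out. In heart minus bone marrow, Mvk passed with median scaling (0.39, adjusted p = 0.0169), the mean of probes (0.26, adjusted p = 0.049) and no variance trend (0.26, adjusted p = 0.0327), Insig1 with the authors' values (0.47) and the mean of probes (0.34), and Hsd17b7 lost its call with median scaling (-0.26, adjusted p = 0.0832). In kidney minus heart, Fads1 passed when only these tissues were fitted or without bone marrow replicate 1 (-0.20 in each). The causes were not tested. Over the alternatives, the further sterol list had 2 to 6 genes higher in heart minus bone marrow, 0 to 2 in kidney minus bone marrow and 1 to 4 in kidney minus heart. The oxysterol list had 3 to 6 higher and 0 to 1 lower in heart minus bone marrow, 1 to 3 lower in kidney minus bone marrow and 3 to 6 lower in kidney minus heart, and the further fatty acid list 1 to 3 higher and 5 to 9 lower in heart minus bone marrow, with 5 under median scaling. Median scaling made 60.5% of all calls in kidney minus bone marrow higher, against 45.1% with quantile normalization. Srebf1 and Acss2 were not tested with the authors' values. With the replicate number as a block, 4737, 6009 and 5275 genes were called for kidney minus bone marrow, heart minus bone marrow and kidney minus heart, against 4769, 6042 and 5290, and no count of the listed genes changed. A slide block was not run, since the headers name no slide.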
